A study of Mus musculus with 6 samples.

Results

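Pigment genes of melanocytes were examined in whole mouse skin, taken 5 days after birth. The genes were Tyr, Tyrp1, Dct, Pmel, Oca2, Mitf, Kit, Ednrb, Mc1r and Mlana, chosen by gene symbol and not by their values. Of these 10 genes 9 had a probe set (a group of short array probes for 1 transcript), with 12 probe sets among the 12422 that were not array controls. Mlana was not measured. Tyrp1 had 4 probe sets and each other gene had 1.

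Melanocytes make melanin in a specialised organelle, the melanosome, and in mouse skin they sit mainly in the bulb of growing hair follicles, from where pigment passes into the hair. Tyrosinase starts the synthesis, Tyrp1 and Dct act further along it, and the transcription factor Mitf switches on these enzymes and most other melanosome genes. The receptors Kit, Ednrb and Mc1r carry the signals for survival, for migration of the precursors and for the type of pigment made.

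The samples were 3 of FVB mice, an albino inbred strain, and 3 of GC13 mice, transgenic animals with added Hoxc13, a homeobox gene that acts in the growing hair follicle. Albino mice keep their melanocytes, whose tyrosinase protein is inactive, so the transcripts of pigment genes can still be measured. The labels name no other allele or agent, and neither the promoter of the transgene nor the strain on which the GC13 line was kept is given there. Whether the replicates of a group were separate mice is not stated either. A p-value therefore covers the spread among these samples, which may be technical, wholly in FVB and in part in GC13. Within GC13, the sex-linked genes given below differed between replicate 2 and replicates 1 and 3, which therefore did not all share the same RNA. Each sample was hybridised to 1 single-sample array, and the values are intensities on a linear scale. The number of arrays limited the precision.

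Facts of the arrays that bear on the pigment genes are given first. No probe set was annotated to Hoxc13, so the overexpressed gene itself was not analysed here. For Gapdh, control probe sets at both ends of the transcript gave a 3' over 5' ratio, a measure of the loss of 5' ends, that was between 0.894 and 0.958 in FVB and between 2.19 and 9.58 in GC13 (exact two-sided permutation test, p = 0.1, the smallest that 3 against 3 arrays allow). The highest ratio was that of GC13 replicate 2. The Gapdh ratios of the groups did not overlap, so RNA quality by this control and line cannot be told apart below. The beta-actin ratio was between 1.16 and 1.36 in FVB, 1.26 and 1.43 in GC13 replicates 1 and 3, and 3.80 in GC13 replicate 2 (exact two-sided permutation test, p = 0.2), so that by this control the groups overlapped and replicate 2 alone stood apart. Without replicate 2 the difference in the log2 ratio was 1.25 for Gapdh and 0.094 for beta-actin. The Y-linked Eif2s3y had intensities between 69.4 and 98.9 in FVB, 143 in GC13 replicate 2, and 3.25 and 4.60 in GC13 replicates 1 and 3. The Y-linked Uty had 13.3 to 15.2 in FVB, 34.7 in GC13 replicate 2, and 4.87 and 7.19 in replicates 1 and 3. Xist, the X-linked gene of X inactivation, had 9.95 to 11.9 in FVB, 1.07 in GC13 replicate 2, and 9.15 and 12.6 in replicates 1 and 3. All GC13 arrays thus lay outside the FVB range of Eif2s3y and Uty, replicate 2 above it and the other two below, and replicate 2 was also far below it for Xist. The sex of the animals and line cannot be told apart, neither with all arrays nor with replicate 2 alone or left out. Of 9 marker genes of whole skin, 7 passed the filter on dim probe sets with intensities from 709 upward. The probe sets of Krt5 and Krt14, keratins of basal keratinocytes, were dim on every array, with highest intensities of 10.6 and 14.2. A dim probe set on this array therefore does not show that a transcript was scarce.

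The stretches just before the transcription start of the 3 enzyme genes and of Oca2 are shown. They hold the core letters of a longer motif that Mitf is known to bind. They are the 250 bases before the start in the RefSeq promoter table of build GRCm38.p6, from chr7:87493513-87493762 on the minus strand for Tyr, chr4:80833963-80834212 on the plus strand for Tyrp1, chr14:118052247-118052496 on the minus strand for Dct and chr7:56239509-56239758 on the plus strand for Oca2. Each is written 5′ to 3′ in the direction of the gene. Capitals mark CATGTG, the core of the M-box, and its reverse complement CACATG.
Tyr: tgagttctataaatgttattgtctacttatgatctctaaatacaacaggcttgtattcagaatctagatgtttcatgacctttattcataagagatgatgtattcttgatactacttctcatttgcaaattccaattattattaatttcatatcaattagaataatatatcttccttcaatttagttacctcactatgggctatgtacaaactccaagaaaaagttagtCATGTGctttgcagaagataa
Tyrp1: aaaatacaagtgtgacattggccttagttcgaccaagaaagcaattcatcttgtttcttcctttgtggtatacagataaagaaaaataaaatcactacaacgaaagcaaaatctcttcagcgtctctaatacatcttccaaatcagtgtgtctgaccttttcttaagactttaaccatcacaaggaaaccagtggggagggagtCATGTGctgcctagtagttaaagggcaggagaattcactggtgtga
Dct: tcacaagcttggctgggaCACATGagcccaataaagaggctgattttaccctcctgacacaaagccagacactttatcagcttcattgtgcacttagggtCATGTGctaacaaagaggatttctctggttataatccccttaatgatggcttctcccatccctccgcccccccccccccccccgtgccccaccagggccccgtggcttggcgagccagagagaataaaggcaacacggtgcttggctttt
Oca2: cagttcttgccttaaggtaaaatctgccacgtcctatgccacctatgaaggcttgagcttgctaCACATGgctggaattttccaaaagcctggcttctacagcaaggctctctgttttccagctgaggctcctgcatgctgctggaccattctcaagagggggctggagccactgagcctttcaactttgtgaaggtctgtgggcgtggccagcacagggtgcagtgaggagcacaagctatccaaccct
The core began 21 bases before the start in Tyr, 46 in Tyrp1 and 150 in Dct, and its reverse complement began 232 bases before the start in Dct and 186 in Oca2. Of the 10 genes, 8 were found in the table, which left out Pmel and Mlana. The core, on either strand, was present in the 300-base windows of 5 of these 8 genes (Tyr, Tyrp1, Dct, Oca2 and Mc1r) and in 15.9% of the 27025 genes of the table. A longer form, GTCATGTGCT or its reverse complement AGCACATGAC, is the core with its 2 neighbours on each side in Tyr. It was searched after the sequences had been seen. This form was present in Tyr, Tyrp1 and Dct, but not in Oca2 or Mc1r, and in 0.155% of all genes. The E-box CACGTG, which reads the same on both strands, was in none of the 8 and in 8.09% of all genes. These matches describe the letters of the windows only.

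GC13 was set against FVB to see what extra Hoxc13 does to expression in skin. The pigment genes were measured lower in GC13, by between 1.13-fold and 1.998-fold in the fit, with no probe set past the threshold. Differences are given as log2 fold changes, GC13 minus FVB, from limma on log2(intensity + 2) with each array centred on its median. They are given with a standard error (SE) and a Benjamini-Hochberg adjusted p over all 9316 probe sets that were kept after the dimmest 25% had been left out. On this scale the change of dim probe sets is understated. In whole skin, fewer melanocytes and less RNA per melanocyte cannot be told apart.

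Tyr encodes tyrosinase, the enzyme of the first step of melanin synthesis. Its intensities were 38.7, 38.4 and 36.6 in FVB against 26.4, 19.6 and 30.6 in GC13. Every GC13 array lay below every FVB array, with means of 37.9 ± 1.09 (SD, n = 3) and 25.5 ± 5.59 (SD, n = 3). The log2 fold change was -0.48 (SE 0.19, limma adjusted p = 0.296), with a 95% interval from -0.93 to -0.035.

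Tyrp1 encodes tyrosinase-related protein 1, the product of the mouse brown locus. Its brightest probe set had 200, 198 and 172 in FVB against 100, 125 and 137 in GC13. The groups did not overlap, and the log2 fold change was -0.58 (SE 0.22, limma adjusted p = 0.282). The second probe set had 16.9, 21.6 and 14.4 in FVB against 8.44, 3.44 and 12.4 in GC13. These groups did not overlap either, and the difference was the largest of the Tyrp1 probe sets that were tested, at -0.98 (SE 0.31, limma adjusted p = 0.205). The third, with 12.3, 12.3 and 9.07 in FVB against 4.48, 5.95 and 11.6 in GC13, had overlapping groups, with a difference of -0.49 on the log2 scale that was -0.24 without GC13 replicate 1. The fourth was at most 3.33 on any array and was left out by the filter. Its difference was 0.44, against the direction of the other 3.

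Dct encodes dopachrome tautomerase, which converts dopachrome, an intermediate of melanin synthesis. Its intensities were 384, 389 and 380 in FVB against 371, 236 and 344 in GC13. The GC13 arrays lay below the FVB arrays, replicate 1 by little, and after centring the groups overlapped. The log2 fold change was -0.23 (SE 0.20, limma adjusted p = 0.621), with a 95% interval from -0.70 to 0.24 that holds 0 and also the estimates of Tyr and of the brightest Tyrp1 probe set. Without GC13 replicate 2 it was -0.13.

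Oca2 encodes the melanosomal membrane protein of the pink-eyed dilution locus, which is needed for tyrosinase to work in the melanosome. Its intensities were 69.5, 71.0 and 72.2 in FVB against 34.0, 36.9 and 27.7 in GC13. The FVB arrays lay within a narrow band and the GC13 arrays well below it, with means of 70.9 ± 1.33 (SD, n = 3) and 32.9 ± 4.67 (SD, n = 3). The difference was the largest among the tested pigment probe sets and had their smallest p, at a log2 change of -0.999 (SE 0.24, 95% interval from -1.55 to -0.45, limma adjusted p = 0.131). It ranked 214th by p among the 9316 probe sets.

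Pmel encodes the protein that builds the fibrils on which melanin is laid down. Its intensities were 368, 296 and 388 in FVB against 276, 101 and 226 in GC13. Each GC13 array lay below each FVB array, and GC13 replicate 2 lay far below the other two. The log2 fold change was -0.83 (SE 0.32, limma adjusted p = 0.282), and it was -0.50 without GC13 replicate 2.

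Mitf encodes the transcription factor that directs the melanocyte lineage and is also expressed in mast cells. Its intensities were 18.7, 20.9 and 19.7 in FVB against 10.2, 10.3 and 16.5 in GC13. The groups did not overlap, and the log2 fold change was -0.55 (SE 0.21, limma adjusted p = 0.273), at -0.55 on GC13 replicate 2 alone and -0.55 over replicates 1 and 3.

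The receptors were less even. Kit, the receptor that keeps melanocyte precursors alive and that mast cells also carry, had 133, 150 and 136 in FVB against 91.3, 168 and 105 in GC13. Replicate 2 lay above every FVB array and replicates 1 and 3 below, so the groups overlapped, and the log2 fold change was -0.18 (SE 0.31, limma adjusted p = 0.822). It was 0.02 without GC13 replicate 1, -0.53 without replicate 2 and -0.02 without replicate 3, and GC13 replicate 2 alone had 0.53.

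Mc1r, the receptor for melanocyte-stimulating hormone, had 32.1, 33.6 and 32.8 in FVB against 24.9, 13.8 and 42.3 in GC13. The GC13 arrays lay on both sides of FVB, with a log2 change of -0.31 (SE 0.30, limma adjusted p = 0.651). It was -0.035 without GC13 replicate 2 and -0.60 without GC13 replicate 3. Ednrb, the receptor for endothelin 3, had 12.5, 17.0 and 7.82 in FVB against 1.11, 5.28 and 2.17 in GC13. Its groups did not overlap, but its mean of -2.20 on the centred log2 scale lay just under the lowest mean kept, -2.15, so it had no test in the main comparison. With no filter the estimate was -1.54 (SE 0.42, limma adjusted p = 0.179 over 12422 probe sets).

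**Figure D1:**
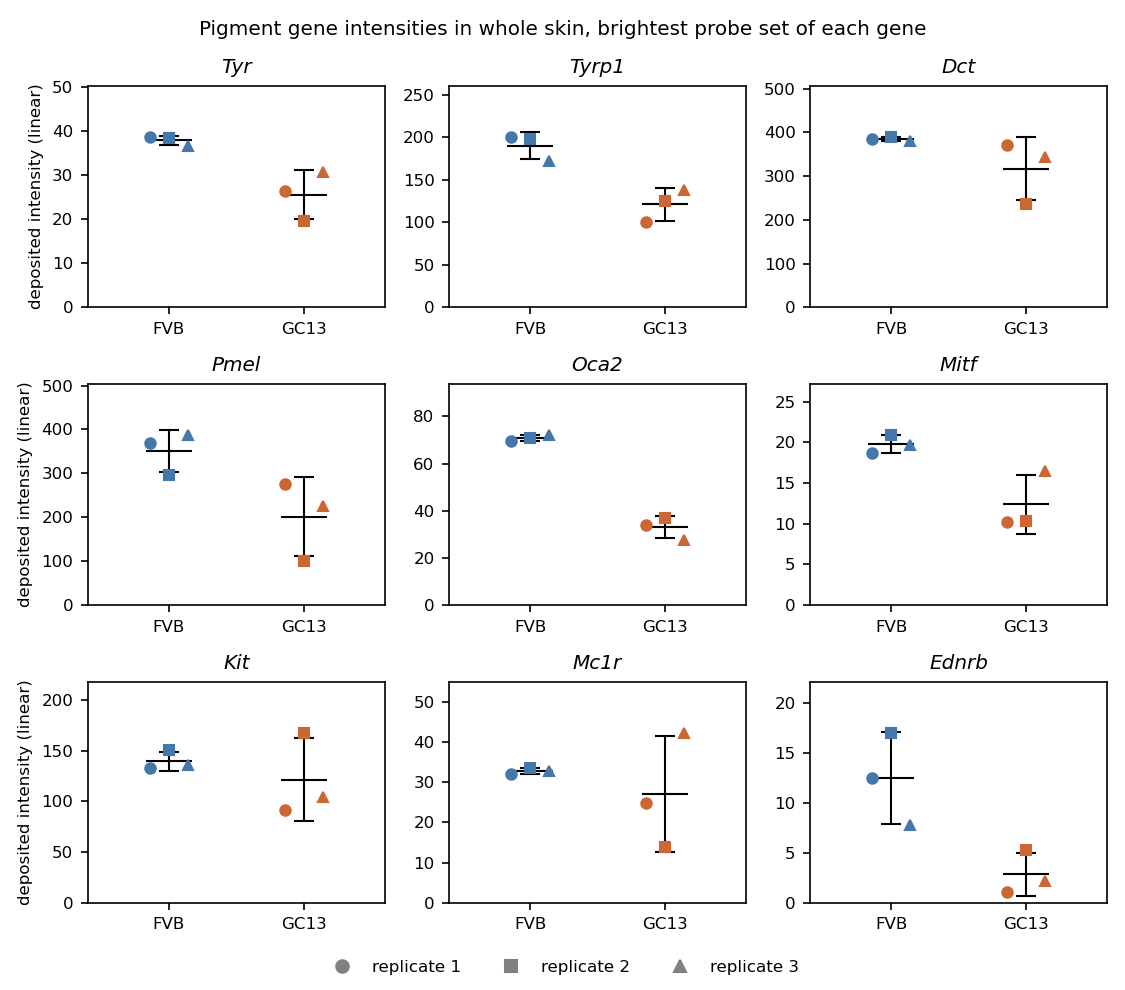
Deposited intensity (linear scale, from 0) of the brightest probe set of each of the 9 measured pigment genes on the 3 FVB and 3 GC13 arrays. Points are arrays, with the replicate given by the symbol, and bars are the mean ± SD of a group. The Oca2 intensities are 69.5 to 72.2 in FVB and 27.7 to 36.9 in GC13, while those of Kit and Mc1r overlap.

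Taken by gene, with each gene standing by its brightest probe set, the 8 pigment genes in the fit all had a log2 fold change below 0, where 43% of all 6867 genes did. Of their 10 tested probe sets none passed the threshold, where 0.472% of all probe sets did (44 of 9316). A p that misses the threshold does not show that a gene was at the same level in both groups. Of all probe sets 0.386% fell and 0.0859% rose. A lower value with an unadjusted p under 0.05 was found for 6 of the 10, where 6.93% of all had one. The deposited GC13 intensities were all below those of FVB for 7 of the 10 probe sets, where this held for 12.3% of all (and the reverse for 10.6%), and for 6 of the 10 on the centred scale, where it held for 9.91%. The median log2 fold change of the 8 genes was -0.52, and that of all probe sets was 0.08. All 8 were also below 0 with no centring, with quantile normalization and with cyclic loess. The filter used the mean over all 6 arrays. Of the 2 probe sets it left out 1 was lower in GC13 (Ednrb) and 1 higher (the fourth of Tyrp1). With no filter all 9 measured genes were below 0, with a median of -0.55.

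**Figure D2:**
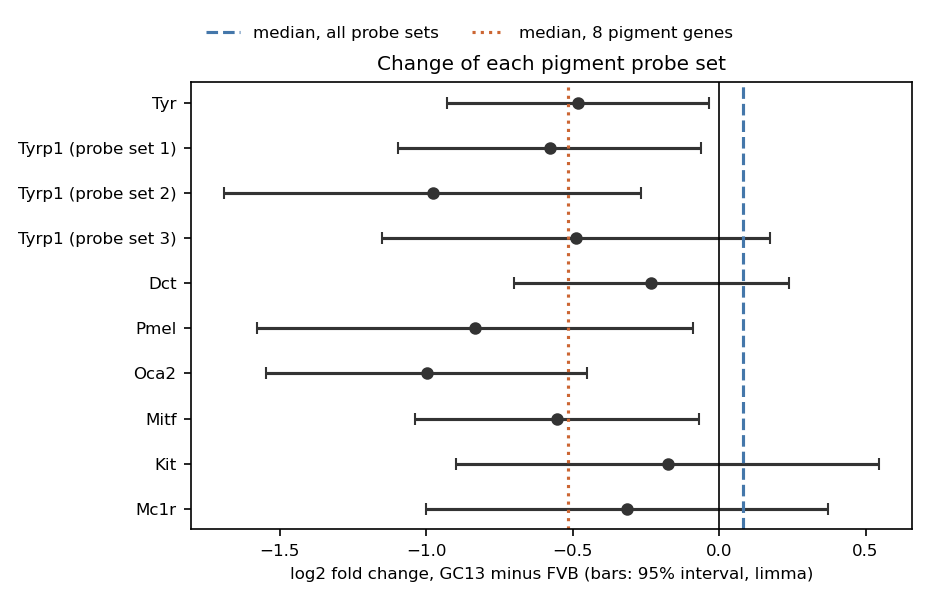
Log2 fold change, GC13 minus FVB, of the 10 tested pigment probe sets, with bars for the 95% interval from limma. The dotted line is the median of the 8 genes (-0.52) and the dashed line that of all probe sets (0.08). The points lie between -0.999 and -0.18, and the bars of Kit, Mc1r, Dct and the third Tyrp1 probe set cross 0.

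The call of single genes depended on 1 array, GC13 replicate 2, whose Gapdh ratio was 9.58. Without it, Oca2 fell by 1.18 on the log2 scale (limma adjusted p = 0.0132) and the brightest Tyrp1 probe set fell by 0.71 (limma adjusted p = 0.0477). These were 2 of 10 probe sets, in a fit where 14.8% of all probe sets passed and 8.8% fell. The GC13 arrays left in that fit are those with low Eif2s3y. GC13 replicate 2 alone against FVB gave 5 of 10 probe sets lower past the threshold, where 26.3% of all passed and 10.5% fell. They were Pmel at -1.50, the second Tyrp1 probe set at -1.57, Mc1r at -0.87, Oca2 at -0.64 and Tyr at -0.62, with limma adjusted p between 0.0228 and 0.0445. In this fit the spread comes from the FVB arrays only, and the lone array is assumed to vary like them. Pearson's r over probe sets was 0.982 to 0.986 between FVB arrays and 0.938 to 0.970 between GC13 arrays, so these p-values may be too small and are not used in support of any gene. In all these fits the FVB arrays were shared.

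The median of the 8 genes relative to the FVB mean was -0.51, -0.59 and -0.43 on GC13 replicates 1, 2 and 3, while that of all probe sets was 0.07, 0.21 and -0.02. The number of the 8 genes below the FVB mean was 8, 7 and 7. The single genes were ordered differently on these arrays. Pmel, Dct, Tyr and Mc1r were lowest on replicate 2, Tyrp1, Mitf and Kit on replicate 1, and Oca2 on replicate 3. Over the 6 arrays, Pearson's r of the centred values was 0.95 between Pmel and Dct, 0.89 between Tyrp1 and Mitf, 0.88 between Tyr and Mitf and 0.85 between Tyrp1 and Oca2. It was 0.33 between Pmel and Tyrp1, and Kit had r between -0.60 and 0.60 with the other 7. These values share the arrays and the difference between the groups, and describe 6 points.

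**Figure D3:**
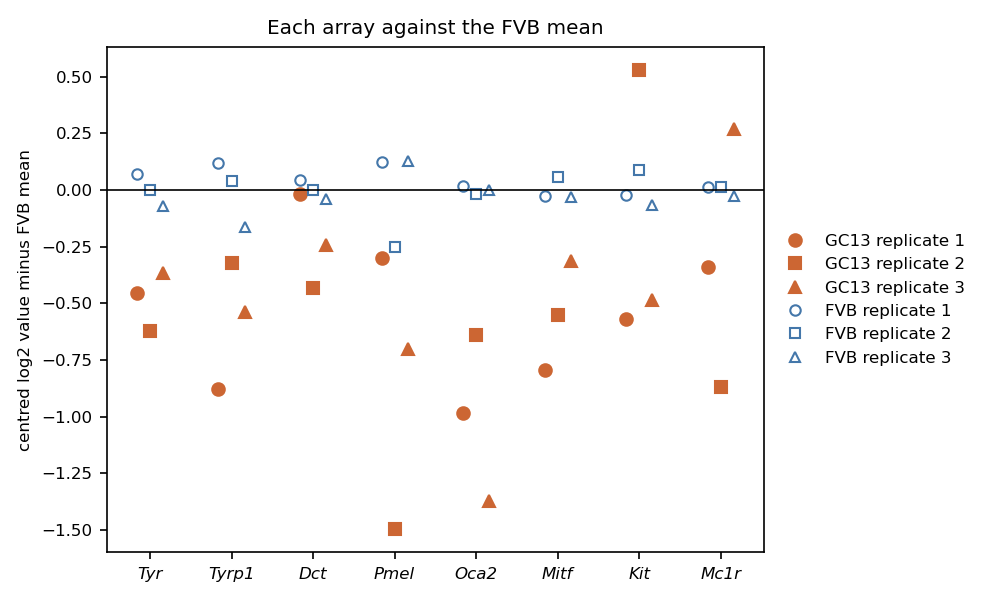
Centred log2 value of each array minus the mean of the 3 FVB arrays, for the brightest probe set of the 8 pigment genes in the fit. Filled symbols are GC13 and open symbols FVB. The GC13 points lie below 0 except Kit on replicate 2 (0.53) and Mc1r on replicate 3, and Pmel on replicate 2 is lowest at -1.50.

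The wider pigment pathway, in lists of other genes, did not share 1 direction. None of its 26 tested members passed the threshold in the main comparison, where 0.472% of all probe sets did. In the fit without GC13 replicate 2, which gave the calls named here and further on, 8.8% of all probe sets fell and 6% rose. The signals to melanocytes had 6 tested members, 4 below 0, with a median of -0.32. Edn3, the ligand of Ednrb, had a log2 change of -0.58 (limma adjusted p = 0.325) and Ece1, the enzyme that activates endothelins, had -0.41 (limma adjusted p = 0.366). Kitl, the ligand of Kit, had 277, 280 and 249 in FVB against 136, 349 and 157 in GC13. Like Kit, it lay above FVB on GC13 replicate 2 and below it on replicates 1 and 3. Without replicate 2, Kitl fell by 0.89 on the log2 scale (limma adjusted p = 0.0197). Edn1, an endothelin gene, then fell by 0.67 (limma adjusted p = 0.0408), but lay 0.51 above the FVB mean on replicate 2. With all arrays Edn1 had -0.27 (limma adjusted p = 0.74).

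Transcription factors of the lineage other than Mitf had 8 tested members, with 5 above 0 and a median of 0.18. Sox10, which acts upstream of Mitf in melanocytes and is also a Schwann cell gene, had 73.0, 62.8 and 93.6 in FVB against 85.5, 66.9 and 112 in GC13. The groups overlapped, with a log2 change of 0.26 (SE 0.23, 95% interval from -0.27 to 0.79, limma adjusted p = 0.622). A second, dimmer probe set of Sox10 had -0.0009 (SE 0.27, limma adjusted p = 0.999). Snai2, a neural crest factor also expressed in dermal and basal epidermal cells, had 0.61 (SE 0.21, limma adjusted p = 0.233), and Irf4, a regulator of Tyr that lymphoid cells also express, had -0.91 (SE 0.50, limma adjusted p = 0.427). Irf4 fell by 1.44 without GC13 replicate 2 (limma adjusted p = 0.0495), but lay 0.15 above the FVB mean on replicate 2.

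Other melanosome proteins had 4 tested members, 3 of them below 0 with a median of -0.47. Cd63, a membrane protein of melanosomes and of lysosomes in most cells, had 701, 790 and 713 in FVB against 438, 497 and 553 in GC13. Its groups did not overlap, with a log2 change of -0.50 (SE 0.20, limma adjusted p = 0.304). Gpr143, a receptor of the melanosome membrane, had -0.46 (limma adjusted p = 0.533). Without GC13 replicate 2, Cd63 fell by 0.60 (limma adjusted p = 0.0499) and Gpr143 by 0.81 (limma adjusted p = 0.0446). On replicate 2 Cd63 lay 0.29 below the FVB mean and Gpr143 0.22 above it. Trpm1, named for its link to melanocytes (melastatin), had 0.04 (limma adjusted p = 0.948) and was chosen after its value was seen.

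Genes of melanosome formation and transport, most of them active in many cell types, had 8 tested members, 4 on each side of 0 with a median of -0.05. Ap3b1, an adaptor subunit whose loss dilutes coat colour, had 306, 309 and 289 in FVB against 504, 392 and 585 in GC13. All GC13 arrays lay above FVB, with a log2 change of 0.76 (SE 0.19, limma adjusted p = 0.14), and without GC13 replicate 2 it rose by 0.82 (limma adjusted p = 0.0211). Rabggta, which modifies Rab proteins, had -0.78 (SE 0.30, limma adjusted p = 0.286).

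Markers of other cell types were read beside the pigment genes. Among genes of the hair follicle, where the skin melanocytes sit, 14 of 17 tested members were below 0, with a median of -0.55, and 1 passed. That was Krt72, an inner root sheath keratin, which fell by 1.37 on the log2 scale (limma adjusted p = 0.0351). Other inner root sheath keratins of the list did not follow it. Krt71 had 0.35 (limma adjusted p = 0.454), Krt25 0.05 (limma adjusted p = 0.942) and Krt27 -0.03 (limma adjusted p = 0.972). The hair factor gene Foxn1 had -2.60 (limma adjusted p = 0.1). The summed intensity of the list was between 22760 and 23880 in FVB and between 18450 and 21620 in GC13, with its lowest single value at 1.31. Of all probe sets 0.386% fell in this comparison. Without GC13 replicate 2, 6 of the 17 fell (Dlx3, Foxn1, Foxq1, Krt34, Krt72 and Msx1), where 8.8% of all probe sets did. On replicate 2 Krt34 lay 0.05 above the FVB mean and the others of these 6 lay below it. The median of the 17 was -0.23 on replicate 2 alone, with 9 of the 17 below 0. That of the 8 pigment genes was -0.59 there, with 7 of the 8 below 0. Without replicate 2 the median of the 17 was -0.69, with 15 of the 17 below 0, where that of the 8 pigment genes was -0.51. The part of the follicle genes in the pigment gene values was not tested.

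Mast cells share Kit and Mitf with melanocytes. Of 11 mast cell markers 7 were tested and 6 of these lay above 0, with a median of 0.51 and none past the threshold. Cma1, a mast cell protease gene, had 0.73 (SE 0.23, limma adjusted p = 0.198) and Cpa3, another, had 0.55 (SE 0.22, limma adjusted p = 0.287). The summed intensity was between 912 and 1001 in FVB and between 1177 and 1897 in GC13. Without GC13 replicate 2, Tpsb2 rose by 1.42 (limma adjusted p = 0.0105) and Tpsab1 by 1.02 (limma adjusted p = 0.0291), both tryptase genes of mast cells, in a fit where 6% of all probe sets rose. On replicate 2 Tpsb2 lay 0.05 above the FVB mean and Tpsab1 0.51 below it. With all arrays Tpsab1 had 0.51 (limma adjusted p = 0.603). The lowest single value of the list was 4.83, and Mcpt2, Mcpt4, Fcer1a and Ms4a2 were left out as dim. Endothelial cells express Ednrb. Their 10 markers had a median of 0.40 with 8 above 0 and none past the threshold. The summed intensity was between 700.2 and 835.8 in FVB and between 971.9 and 1252 in GC13, with a lowest single value of 12.1. Eng had 1.02 (SE 0.30, limma adjusted p = 0.182) and Cldn5 had -0.65 (SE 0.21, limma adjusted p = 0.212). Eng rose by 1.24 without GC13 replicate 2 (limma adjusted p = 0.0318). Schwann cells share the neural crest origin and Sox10 with melanocytes. Their 8 tested markers had a median of 0.17 with 5 above 0, none past the threshold and sums between 1584 and 1691 in FVB and between 1828 and 1968 in GC13. The lowest single value was 3.30, Ncam1 had 0.92 (limma adjusted p = 0.135) and Mag had 0.84 (limma adjusted p = 0.318). Ncam1 rose by 1.10 without GC13 replicate 2 (limma adjusted p = 0.0104).

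The 7 tested markers of whole skin all lay above 0, with a median of 0.54 and none past the threshold. Their summed intensity was between 10630 and 11220 in FVB and between 12230 and 18690 in GC13. Flg, the filaggrin gene of the outer epidermis, had 1.05 (SE 0.22, limma adjusted p = 0.0977) and Krt1, a keratin gene of the layers above the basal cells, had 1.11 (SE 0.30, limma adjusted p = 0.158). Without GC13 replicate 2, Krt1 rose by 1.42 (limma adjusted p = 0.01), Flg by 1.15 (limma adjusted p = 0.0169), Lor, which encodes the cornified envelope protein loricrin, by 0.95 (limma adjusted p = 0.017) and Col1a2, a dermal collagen gene, by 0.72 (limma adjusted p = 0.0492). On replicate 2 Lor lay 0.38 below the FVB mean, and with all arrays it had 0.51 (limma adjusted p = 0.546). The part of the mast cell, endothelial, Schwann cell and whole skin genes in the pigment gene values was not tested.

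**Figure D4:**
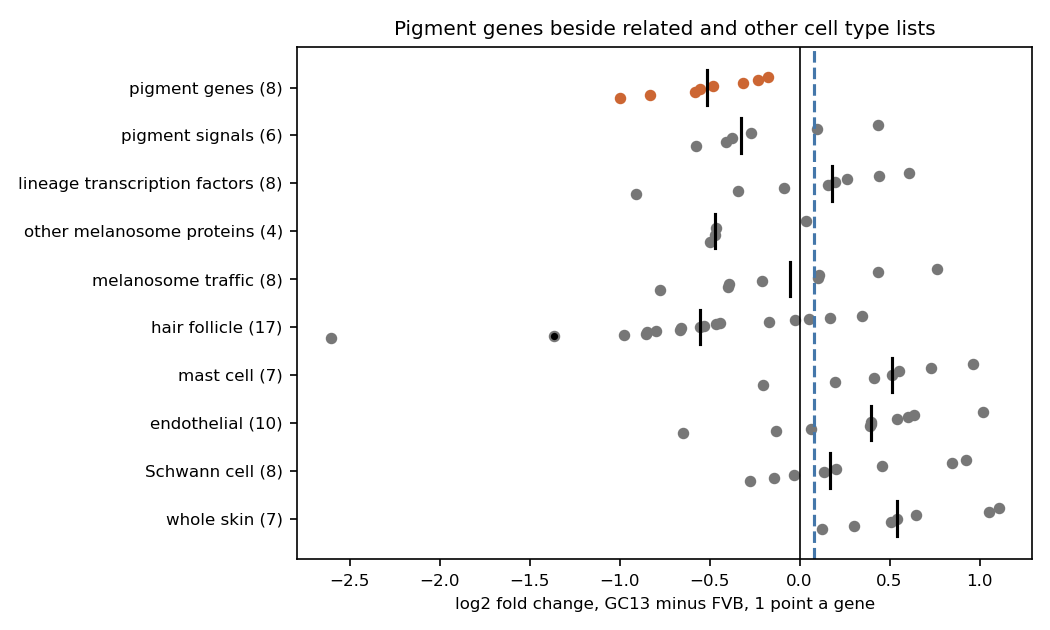
Log2 fold change, GC13 minus FVB, of every tested gene in the pigment list, 4 lists of the wider pigment pathway and 5 marker lists, 1 point a gene by its brightest probe set. The number of genes stands in brackets, the short line is the median of a list and the dashed line that of all probe sets. The pigment and hair follicle medians lie at -0.52 and -0.55, and those of the mast cell, endothelial, Schwann cell and whole skin lists lie above 0. The black point is Krt72, the only gene shown that passed the threshold.

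The genes most like the pigment genes over the arrays were taken by Pearson's r with the mean scaled profile of Tyr, Tyrp1, Dct, Pmel and Oca2. That profile lay between 0.615 and 0.964 in FVB and between -1.035 and -0.487 in GC13. Genes with a high r to it are therefore lower in GC13 by selection, and their changes are no separate finding. The 5 named genes with the highest r were Ddr1, a collagen receptor kinase gene (r = 0.999), Usp22, a ubiquitin protease gene (r = 0.995), Nppc, the precursor gene of C-type natriuretic peptide (r = 0.992), Dctn2, a dynactin subunit gene (r = 0.991), and Mpdu1, a glycosylation gene (r = 0.990). Ddr1 had 244, 227 and 226 in FVB against 151, 103 and 146 in GC13, with groups that did not overlap and a log2 change of -0.74 (limma adjusted p = 0.154). Usp22 fell by 3.21 on the log2 scale (limma adjusted p = 0.00788), from 40.5 ± 5.49 to 2.54 ± 1.59 (SD, n = 3 each). A second probe set of Dctn2 had -0.29 against -1.29 for the first. With 6 arrays, 323 of the 9316 probe sets (3.47%) had an r over 0.9. Among the pigment genes that made the profile Tyr had the highest r, 0.975, and the brightest Tyrp1 probe set the lowest, 0.755. Mitf, which was not part of the profile, had 0.814, Mc1r 0.510 and Kit 0.053.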

How the data were processed

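RNA of whole skin from 3 FVB and 3 GC13 samples was measured on 6 single-sample arrays. The deposited values are intensities on a linear scale; from the values, the authors had scaled each array to a mean of 100 with the highest and lowest 2% left out. No header or label names the software, the background correction or any detection call.

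The 66 control probe sets served only to compare transcript ends. The pseudocount of 2 is near the 10th percentile of the intensities (1.61). Array medians spanned 0.345 on the log2 scale, so arrays were centred. The fit used lmFit and eBayes of limma 3.58.1 in R 4.3.3, two-sided, over all 6 arrays, at an adjusted p of 0.05. It was tested on simulated data, where it found most log2 changes of 2 and nearly none of 1. The latter is about the size of the largest change among the tested pigment probe sets. Sizes between 1 and 2 were not tested. Of the 12422 probe sets 10833 had 1 gene symbol in the platform annotation, 396 several and 1193 none. Symbols were updated through Entrez identifiers with the RefSeq table of GRCm38.p6, in which 10817 of the named probe sets were found. A gene stood by its probe set with the highest mean.

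The named genes were every member with a probe set, the list members past the threshold, the 2 with the smallest p in each list, and the 5 most like the melanosomal profile. Further genes (Kitl, Edn1, Sox10, Gpr143, Trpm1, Krt5, Krt14, Eif2s3y, Uty, Xist, the marker genes past the threshold without GC13 replicate 2, and the dim mast cell genes) were chosen with their values known. So were the keratin genes Krt71, Krt25 and Krt27. The members and lists were chosen with earlier results of these data known. Replicate numbers are shared by the groups, but same-numbered arrays deviated together with correlations of -0.07, 0.18 and 0.36, so the numbers were not taken as pairs.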

Additional observations from a re-analysis of the deposited data

How the results depend on the processing

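The lower pigment gene values kept their direction under the scalings and filters tried, while the number of calls did not keep its size. The 44 probe sets past the threshold became 83 and 119 with a pseudocount of 16 and 32, 23 with the dimmest 50% left out, 28 with no centring, 78 with the replicate block, 3850 with array weights and 2447 for GC13 replicate 2 alone. They ranged from 0 to 1379 when 1 array was left out, with 0 without each of the FVB replicates, 9 without GC13 replicate 1, 1379 without GC13 replicate 2 and 11 without GC13 replicate 3. Of the 10 pigment probe sets 7 passed with array weights, all lower, where 3850 of all 9316 probe sets passed and 1800 fell. The weights of GC13 replicates 1, 2 and 3 were 4.12, 0.107 and 0.329, so the GC13 side of that fit rested mainly on replicate 1. When 1 array was left out, from 0 to 2 of the 10 pigment probe sets passed. The replicate block changed no call of a pigment probe set. The median of the pigment genes was -0.33 and -0.25 with a pseudocount of 16 and 32, which draws low values together by construction. These 2 medians were over 9 genes, since Ednrb then passed the filter, and not over the 8 of the main fit. The median ranged from -0.60 to -0.43 when 1 array was left out. With the dimmest 50% left out only 5 pigment genes were tested, all 5 of them below 0, and with 1 array left out 7 or 8 of 8 were. Kit ranged from -0.53 without GC13 replicate 2 to 0.022 without GC13 replicate 1, and had 0.53 for GC13 replicate 2 alone. For the other counts the cause was not tested. Signal over background is unknown, which limits Mitf, Ednrb and the dimmer Tyrp1 probe sets most.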
